A study of Mus musculus with 6 samples.

Results

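Lung epithelial cells call and warn leukocytes through chemokines and alarmins, and 8 such genes of the mouse were followed here through bronchioalveolar stem cells (BASC), alveolar type 2 (AT2) cells and Club cells. They are the chemokine genes Cxcl15, Cxcl1, Cxcl2, Cxcl16, Cx3cl1 and Cxcl17 and the alarmin genes Il33 and Il18. They were taken by gene name from a table of 22239 genes, and all 8 were found in it. RNA was sequenced in bulk from cells sorted by FACS from the lungs of mice aged 8 weeks, after removal of CD31 and CD45 positive cells. BASC carried both reporters, CCSP-mCherry and SPC-YFP. AT2 cells were taken as SPC-YFP positive and Club cells as CCSP-mCherry positive, with 2 samples in each population. CCSP is the product of Scgb1a1 and SPC that of Sftpc, so each population is what its reporters mark. Whether the 2 samples of a population came from different animals is not said in the labels, and p-values therefore reflect the spread between samples that may be technical.

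Chemokines are small secreted or membrane-held proteins that steer leukocytes through receptors on their surface. They are sorted by the spacing of a pair of cysteines near the start of the mature protein, and CXC chemokines with glutamate, leucine and arginine before that pair attract neutrophils, mostly through CXCR2. Il33 and Il18 encode cytokines of the interleukin-1 family that lack a usual secretion signal. IL-33 is kept in the nucleus and released when cells are damaged, and IL-18 is made as a precursor that caspase-1 cuts.

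The coding stretches around the cysteine pair show its spacing in the 6 chemokine genes. The search took a pair with 1 or 3 codons between the cysteines in each gene, and likeness between the genes was not measured. Each is given as 60 bases of the coding strand, from transcripts of GENCODE mouse release M21 on GRCm38, with capitals on cysteine codons.
Cxcl15: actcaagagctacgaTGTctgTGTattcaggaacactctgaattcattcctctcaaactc
Cxcl1: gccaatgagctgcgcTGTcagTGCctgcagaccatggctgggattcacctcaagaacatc
Cxcl2: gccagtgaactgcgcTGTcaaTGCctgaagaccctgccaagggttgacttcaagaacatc
Cxcl16: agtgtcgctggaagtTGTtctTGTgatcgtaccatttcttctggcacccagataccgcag
Cxcl17: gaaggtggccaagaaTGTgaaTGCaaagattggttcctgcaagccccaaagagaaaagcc
Cx3cl1: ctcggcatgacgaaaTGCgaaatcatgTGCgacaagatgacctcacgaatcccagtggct
Cxcl15, Cxcl1 and Cxcl2 have glutamate, leucine and arginine codons directly before the pair, at chr5:90795213-90795272, chr5:90891481-90891540 and chr5:90904127-90904186 on the plus strand. Cxcl16 (chr11:70459091-70459150, minus strand) and Cxcl17 (chr7:25402219-25402884, minus strand) also have 1 codon between the cysteines but lack those codons. The Cxcl17 stretch runs across an exon junction, and the others lie within 1 coding exon. Cx3cl1 (chr8:94778036-94778095, plus strand) has 3 codons between its cysteines, the spacing that names it. Its coding region has 395 codons and that of Cxcl16 has 246, against 96 in Cxcl1 and 100 in Cxcl2, and both longer genes encode membrane-spanning chemokines that proteases shed.

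Values are the authors' normalised read counts. For a gene listed at 0, the expected count could still be up to 3 reads, for counting error only. That corresponds to 2.29 to 4.02 normalised counts depending on the library. The reads over the genes in the table were estimated at between 10118863 and 18205636 per library. The reporter genes followed the sort. Sftpc had 240 and 224 in Club cells and at least 290809 in each BASC and AT2 library, and Scgb1a1 had 413 and 302 in AT2 libraries, 43993 and 58791 in BASC libraries and at least 751642 in Club cells. Markers of other cells were also read. Summed mesenchymal markers (6 of 8 analysed) ran from 13 to 104 in 5 libraries and reached 240 in AT2 replicate 1, and endothelial markers (4 of 8) ran from 34 to 72. Leukocyte markers (6 of 14) ran from 179 to 442, of which Cd68 made up between 114 and 280, Csf1r between 37 and 118, Cd79a between 2 and 75, and Coro1a and Fcer1g at most 12 each. Summed ciliated cell markers (6 of 6) had 5670 and 5742 in the Club libraries and between 714 and 945 in the others. Alveolar type 1 markers (6 of 6) ran from 12158 to 14832 in BASC and AT2, with 7392 and 8306 in Club cells. Among them, Ager had at least 8105 in BASC and AT2 libraries and at most 1762 in Club libraries. Pdpn had 561 and 457 in Club libraries and at most 17 elsewhere. Basal and neuroendocrine markers (4 of 6) summed to at most 61.

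The 8 genes fell into groups by population. Cxcl15 and Il33 were high in BASC and AT2 and low in Club cells, Cxcl17 and Cx3cl1 were highest in Club cells, Cxcl16 was near level, and Cxcl1, Cxcl2 and Il18 were low everywhere. In bulk RNA, fewer cells that express a gene and less RNA per cell cannot be told apart. Tests were made with limma on log2(value + 1) across 17721 genes, with Benjamini-Hochberg adjustment over all of them, 2 samples per population and an adjusted p under 0.05 as the threshold of a call. Between BASC and AT2, limma called 0 of the 8 genes higher, against 0.553% of all genes tested, and 0 lower, against 0.079% (0.632% in either direction). At an unadjusted p under 0.05, Cxcl2 was higher and Il33 lower, 1 of 8 each way, where 7.09% and 6.09% of all genes tested were. Between BASC and Club cells, 3 were higher in BASC, where 5.77% of all genes tested were called higher, and 2 were lower, where 5.42% were called lower. Between AT2 and Club cells, 2 were higher in AT2 (8.42% of all genes) and 2 lower (9.71%). The median log2 difference of the 8 genes was 0.10 for BASC against AT2, 1.52 for BASC against Club and 0.22 for AT2 against Club, beside 0, -0.10 and -0.10 over all genes tested. All 8 genes passed the filter of at least 10 in at least 2 samples, but Cxcl2 passed it only through its BASC libraries, so it had to differ, and Il18 passed with 12 and 10 as its highest values.

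**Figure D1:**
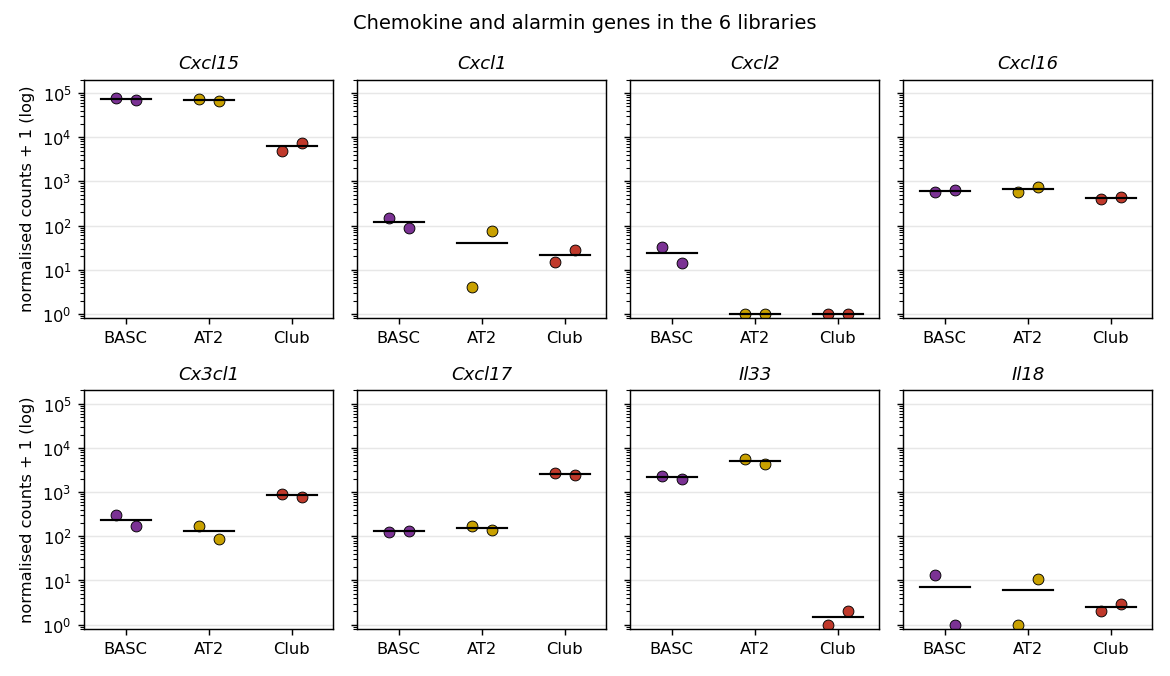
Normalised counts plus 1 on a log axis for the 8 genes, with 1 point per library, 2 libraries in each of BASC, AT2 and Club, and a bar at the population mean plus 1. Il33 sits between 1956 and 5633 in BASC and AT2 and at 0 and 1 in Club cells, while Cxcl17 sits at 2449 and 2768 in Club cells and at most at 173 elsewhere.

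Cxcl15 (ENSMUSG00000029375, GRCm38 chromosome 5, 90794534 to 90803067, plus strand), known in mice as lungkine, a chemokine that draws neutrophils into the airspaces, had the highest level of the 8. It had 76341 and 70218 (BASC), 74286 and 65477 (AT2) and 4875 and 7460 (Club cells). BASC and AT2 overlapped, and each Club library lay below all 4 of them. Cxcl15 was 11.9-fold higher in BASC than in Club cells (log2 difference 3.60 ± 0.19, SE, n = 2 per population, limma adjusted p = 6.31e-05) and 11.3-fold higher in AT2 than in Club cells (3.53 ± 0.19, adjusted p = 3.49e-05). The fitted difference between BASC and AT2 was 0.07, with a 95% interval from -0.38 to 0.52 (adjusted p = 0.924). The Club libraries held Cxcl15 at 8.83% of its AT2 level. Of 8 AT2 markers, 5 stood below that share, among them Sftpc at 0.069%, Lamp3 at 0.078% and Slc34a2 at 1.05%, and 3 above it, Sftpa1 at 15.9%, Sftpb at 17.8% and Abca3 at 31.6%.

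Cxcl15 lies in a cluster of CXC genes on chromosome 5. Across the 146.6 kb from Cxcl5 to Cxcl2 the table held 8 genes, and the neighbours were read to see how far the level of Cxcl15 extended. Pf4 and Cxcl5, whose starts lie at -22.1 and -35.2 kb from that of Cxcl15, had at most 12 and 25 in any library. Cxcl1, at 96.7 kb, had at most 150 and Cxcl2, at 109.3 kb, at most 32. GENCODE M21 has 7 protein-coding genes in this stretch, and some of them were not in the table. Transcripts without a protein-coding annotation also lie in it, among them the ribosomal RNA gene Gm22816, with at most 13 in any library. Gm43085 starts 193 bases past the end of Cxcl15 on the same strand, and had values of 11820 and 11471 across BASC, 8767 and 8161 across AT2 and 323 and 736 across Club cells. Its log2 difference was 4.58 for BASC against Club and 4.11 for AT2 against Club (limma adjusted p = 0.000226 in each), and both BASC values lay above both AT2 values (0.46, adjusted p = 0.625), where those of Cxcl15 overlapped. The lincRNA Gm43086, at 37.8 kb, had 39 and 28 in the BASC libraries, 100 and 197 in the AT2 libraries, and 0 in each Club library.

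**Figure D2:**
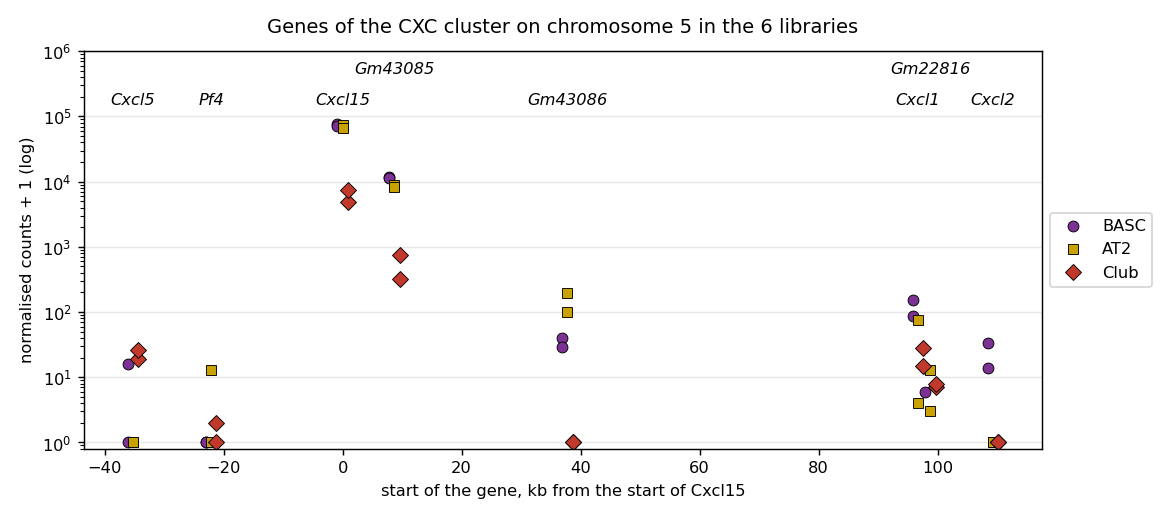
Normalised counts plus 1 on a log axis for the 8 genes of the cluster against the distance of each gene's start from that of Cxcl15 in kb, with 1 point per library and populations set slightly apart along the axis for legibility. Only Cxcl15 and Gm43085 exceed 1000 in any library, and both are lower in Club cells than in BASC or AT2.

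Cxcl1 and Cxcl2, inflammatory neutrophil attractants that bind CXCR2, were low. Cxcl1 (ENSMUSG00000029380, chromosome 5, 90891241 to 90893115) had 150 and 86 in the BASC libraries, 3 and 75 in the AT2 libraries and 14 and 27 in the Club libraries. Both BASC libraries lay above the other 4, but the 2 AT2 libraries were far apart, and neither difference from BASC was called (log2 difference 2.72 against AT2, 95% interval -0.55 to 5.98, adjusted p = 0.474, and 2.48 against Club, -0.78 to 5.75, adjusted p = 0.339). The mean of 39.0 in AT2 was above that of 20.5 in Club cells, while the fitted log2 difference of AT2 against Club was -0.23 (adjusted p = 0.941). Cxcl2 (ENSMUSG00000058427, chromosome 5, 90903871 to 90905938) had 32 and 13 in the BASC libraries, and all 4 other libraries listed it at 0. Against a floor of 3 reads per library, it was at least 8.18-fold higher in BASC than in AT2 and at least 8.06-fold higher than in Club cells. The fitted log2 difference was 4.43 in both, past the threshold against Club (adjusted p = 0.0405) and not against AT2 (adjusted p = 0.140). The call against Club was lost without AT2 replicate 1 or 2 (adjusted p = 0.0625 and 0.0633) and without Club replicate 1 or 2 (0.507 and 0.518), and the gene did not pass the filter once a BASC library was left out. It was also lost with the replicate number as a block (adjusted p = 0.0702), a pseudocount of 10 (0.0707), no filter (0.0635) and only the 2 groups fitted (0.0629).

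The promoters of this pair share a run of 14 bases, shown because both genes had their highest values in BASC. It is the longest run in common between their 250 bases upstream of the RefSeq start sites, and it opens with letters of the NF-kB type of motif. The stretches below are the coding strand on GRCm38.p6, with the shared run in capitals, at chr5:90891151-90891210 and chr5:90903779-90903838 on the plus strand.
Cxcl1: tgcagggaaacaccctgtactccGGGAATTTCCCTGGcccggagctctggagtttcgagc
Cxcl2: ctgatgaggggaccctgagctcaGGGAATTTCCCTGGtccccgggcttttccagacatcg
The run begins 71 bases before the start site in Cxcl1 and 97 in Cxcl2. With the stretches lined up on the run, 30 of the 60 bases shown are identical in place, the 14 of the run included. RefSeq promoters were found for 6 of the 8 genes. Searched on both strands, GGGAATTTCCCTGG was in 2 of 32851 promoters of the same length (0.006%), those of the 2 genes it was taken from. A match describes letters and not a bound site, and the part of the run in the levels of the 2 genes was not tested.

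Genes of NF-kB signalling were also read across the same libraries. All 18 factors and feedback genes listed were tested, and limma called 0 between BASC and AT2, with 3 higher and 0 lower at an unadjusted p under 0.05 (7.09% and 6.09% of all genes tested). Against Club cells, 3 were called higher and 1 lower both in BASC (5.77% and 5.42% of all genes) and in AT2 (8.42% and 9.71%). These comparisons share the Club libraries. Nfkbiz, an inducible nuclear co-regulator of NF-kB, had 3486 and 3694 in BASC, 3095 and 3745 in AT2 libraries, and 912 in each Club library (BASC against Club, adjusted p = 0.000195). Birc3, an inhibitor of cell death that NF-kB induces, was 1.98 higher on the log2 scale in BASC than in Club cells and 1.87 higher in AT2 (adjusted p = 0.00267 and 0.00205). Icam1, the adhesion receptor of leukocytes on epithelium, was 1.49 and 1.78 higher (adjusted p = 0.00215 and 0.000563), of which the call in BASC was lost without a mean-variance trend (0.0615). Ikbkg, the regulatory subunit of the kinase that frees NF-kB, was the gene lower, with 492 and 611 (BASC), 373 and 534 (AT2) and 1917 and 1898 (Club cells) (adjusted p = 0.00309 and 0.000937). The list's median log2 difference was 0.20 for BASC against AT2, 0.21 for BASC against Club and -0.04 for AT2 against Club.

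Cxcl16 and Cx3cl1 encode the membrane-held chemokines, which bind CXCR6 and CX3CR1 and become soluble when the proteases ADAM10 and ADAM17 cut them. Cxcl16 (ENSMUSG00000018920, chromosome 11, 70453983 to 70459984, minus strand) had values of 569 and 624 across BASC, 582 and 764 across AT2 and 406 and 444 across Club cells. The Club libraries lay below the other 4, yet no difference was called. The largest was 1.58-fold, for AT2 against Club (log2 difference 0.65, 95% interval 0.15 to 1.15, adjusted p = 0.0817), and that of BASC against Club was 0.49, from -0.02 to 0.99 (adjusted p = 0.220). Zmynd15 overlaps Cxcl16 on the opposite strand, and whether counting used the strand is not given in the sources used here. Zmynd15 had at most 105 in any library. Cd68, a macrophage gene and the main leukocyte marker here, moved with Cxcl16, at 114 and 132 in Club libraries and between 234 and 280 in the rest, and its part in the result was not tested.

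Cx3cl1, or fractalkine (ENSMUSG00000031778, chromosome 8, 94772009 to 94782427, plus strand), had 308 and 169 in the BASC libraries, 170 and 85 in the AT2 libraries and 925 and 773 in the Club libraries. Club cells stood above all other libraries, and BASC and AT2 overlapped. It was 6.66-fold lower in AT2 than in Club cells (log2 difference -2.80 ± 0.43, adjusted p = 0.00472) and 3.56-fold lower in BASC than in Club cells (-1.89 ± 0.43, adjusted p = 0.0337). The latter call was lost without BASC replicate 1 (adjusted p = 0.0651), BASC replicate 2 (0.161), Club replicate 1 (0.178) or Club replicate 2 (0.0983), and without a trend (0.134). BASC against AT2 differed by 0.92, with an interval from -0.09 to 1.93 (adjusted p = 0.429).

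The shedding proteases were present in every library. Adam10 had between 1075 and 1479 in the 6 libraries and was not called in any comparison. Adam17 had 990 and 817 (BASC), 1294 and 1133 (AT2) and 683 and 643 (Club cells), and was higher in AT2 than in Club cells (log2 difference 0.87, adjusted p = 0.0152). That call was lost in 3 of 6 fits without 1 library, those without AT2 replicate 1, Club replicate 1 or Club replicate 2, with an adjusted p of up to 0.0974, and without a trend. Rhbdf2, a carrier that Adam17 needs to mature, was 0.89 higher in AT2 than in Club cells (adjusted p = 0.0453), and lost its call in 5 of 6 such fits, all but that without Club replicate 1 (adjusted p up to 0.262), and under 6 of the other 9 alternatives. The CXCL16 receptor gene Cxcr6 was low and scattered, with values of 62 and 44 across BASC, 82 and 6 across AT2 and 111 and 29 across Club cells.

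Cxcl17 (ENSMUSG00000060188, chromosome 7, 25400053 to 25412886, minus strand), a chemokine-like protein of mucosal surfaces that draws myeloid cells, had the clearest Club pattern. It had 123 and 134 in the BASC libraries, 173 and 136 in the AT2 libraries and 2768 and 2449 in the Club libraries. The Club libraries lay far above the others. Cxcl17 was 20.3-fold lower in BASC than in Club cells (log2 difference -4.33 ± 0.24, adjusted p = 7.31e-05) and 16.9-fold lower in AT2 than in Club cells (-4.08 ± 0.24, adjusted p = 5.41e-05). BASC did not stand above AT2: the difference was -0.25, with an interval from -0.82 to 0.31 (adjusted p = 0.712). For scale, BASC held Cxcl17 at 4.93% of its Club level and AT2 at 5.92%. Of 8 Club cell markers, 5 stood above 4.93% in BASC and 3 below it, from 0.53% for Muc5b and 1.43% for Scgb3a2 through 6.80% for Scgb1a1 and 13.1% for Cyp2f2 to 39.7% for Cbr2. In AT2, 1 of the 8 stood above 5.92%, Cbr2 with 17.9%. The antisense gene 4732471J01Rik overlaps Cxcl17 and had 25 and 105 (BASC), 111 and 165 (AT2) and 64 and 35 (Club cells). Since the strand setting is not known, low values of Cxcl17 cannot be told apart from reads of this gene.

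The Club libraries also held the ciliated cell genes, and Cx3cl1 and Cxcl17 moved with them. Foxj1, the master factor of motile cilia, had 795 and 825 in Club cells and between 40 and 115 in the other libraries, and the axonemal dynein gene Dnah5 had 2147 and 2110 against at most 169. Their part in the levels of Cx3cl1 and Cxcl17 was not tested.

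Il33 (ENSMUSG00000024810, chromosome 19, 29925114 to 29960718, plus strand) had the largest differences of the 8 genes against Club cells. It had values of 2361 and 1956 across BASC, 5633 and 4314 across AT2 and 0 and 1 across Club cells. No population overlapped another. The Club libraries together held an estimated 1 read, and the ratio of means was 4317 for BASC against Club (95% counting interval 827.8 to 182315) and 9947 for AT2 against Club (1985.5 to 437061). The fitted log2 differences were 10.57 ± 0.40 and 11.77 ± 0.40 (adjusted p = 1.52e-05 and 6.27e-06). BASC held 43.4% of the AT2 level, 47.5% in replicate 1 and 39.3% in replicate 2. That difference of -1.20 ± 0.40, with an interval from -2.13 to -0.27, did not pass the adjusted threshold (adjusted p = 0.257, unadjusted p = 0.0184). The 8 AT2 markers stood at between 63.1% (Lamp3) and 100.1% (Sftpa1) of their AT2 level in BASC, but Lcn2 stood at 51.6%, and the lysozyme gene Lyz1 had 3947 and 3524 in the BASC libraries against 10035 and 16981 in the AT2 libraries. These shares were not tested against that of Il33, and a lower level in BASC than in AT2 was not particular to it. Mesenchymal markers, whose cells can also make IL-33, summed to 240 in AT2 replicate 1 and 13 in AT2 replicate 2, and Il33 was 5633 and 4314 in them. Their part in the level of Il33 was not tested. Without AT2 replicate 1 the difference between AT2 and Club cells was 11.58 (adjusted p = 0.000577), and that between BASC and AT2 was -1.01 (adjusted p = 0.512).

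Of 18 listed receptors and decoys of chemokines and cytokines, 10 were analysed and 9 tested. The list was not limited to receptors of the ligands followed here, and Il1r1 and Ackr3 are among those for other ligands. Limma called 0 between BASC and AT2 (3 higher and 1 lower unadjusted, against 7.09% and 6.09% of all genes). Against Club cells it called 3 higher (5.77% of all genes) and 1 lower (5.42%) in BASC, and 2 lower (9.71%) in AT2. The receptor of IL-33 pairs Il1rl1, not analysed here, with the shared chain Il1rap. Il1rap had 279 and 185 in the BASC libraries, 244 and 87 in the AT2 libraries and 817 and 562 in the Club libraries. It was lower in AT2 than in Club cells (log2 difference -2.21, adjusted p = 0.0242), a call lost without a trend, with only those 2 groups fitted and in 4 of 6 fits without 1 library, those without either BASC replicate, AT2 replicate 2 or Club replicate 1 (adjusted p up to 0.113). Il1r1, the receptor of interleukin-1, had 1352 and 1282 (BASC), 733 and 390 (AT2) and 317 and 422 (Club cells). It was higher in BASC than in Club cells (1.84, adjusted p = 0.0116), but not without BASC replicate 1 or 2 (adjusted p up to 0.0869) or a trend, and its difference from AT2 was 1.30, from 0.56 to 2.04 (adjusted p = 0.142). Ackr3, an atypical receptor that scavenges CXCL12 and was named after its values were seen, had 47 and 39 in Club libraries and at most 1 elsewhere (adjusted p = 0.0306 for BASC and 0.0213 for AT2). It passed the filter only through the Club libraries, so it had to differ, and it is the gene counted lower in BASC and 1 of the 2 counted lower in AT2. Its calls were lost without either BASC replicate (up to 0.0896) and without either AT2 replicate (up to 0.0814), the former also without a filter and with the replicate block, and the latter with quantile normalization.

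Il18 (ENSMUSG00000039217, chromosome 9, 50554827 to 50581840, plus strand) was at or near the floor. It had values of 12 and 0 across BASC, 0 and 10 across AT2 and 1 and 2 across Club cells, so 1 library each of BASC and AT2 carried the reads and no order of the populations can be read. The intervals of its 3 differences ran from -3.84 to 4.52 on the log2 scale, wide enough to hold large differences in either direction. Bco2 overlaps it on the opposite strand and had at most 16.

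Of 20 proteases and inflammasome genes, 13 were analysed and 12 tested. Limma called 0 between BASC and AT2 (1 higher and 1 lower unadjusted, against 7.09% and 6.09% of all genes). Against Club cells it called 1 lower in BASC (5.42% of all genes), and 2 higher (8.42%) and 2 lower (9.71%) in AT2. Casp1, which encodes the protease that cuts the IL-18 precursor, was listed at 0 in the BASC and AT2 libraries and had 64 and 88 in the Club libraries. It was at least 22.5-fold lower in BASC than in Club cells and at least 27.6-fold lower in AT2 than in Club cells (limma adjusted p = 0.0104 and 0.00653). Casp1 passed the filter only through the Club libraries, so it had to differ. It is the gene counted lower in BASC and 1 of the 2 counted lower in AT2. Casp1 fell under the level at which listed genes were to be named, so it was picked after its values were seen. Its neighbour Casp4, which senses bacterial lipopolysaccharide inside cells, had 74 and 49 in the BASC libraries, 9 and 0 in the AT2 libraries and 397 and 387 in the Club libraries. It was lower in AT2 than in Club cells (log2 difference -6.96, adjusted p = 0.00593), while the differences of BASC from Club cells (-2.68, adjusted p = 0.199) and from AT2 (4.28, adjusted p = 0.170) were not called. Gsdmd, which forms the pore that lets IL-18 out, had between 138 and 377 in all libraries, and the adaptor Pycard had between 167 and 592.

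The IL-18 receptor chain gene Il18r1 had 3566 and 4208 (BASC), 2839 and 2414 (AT2) and 2106 and 2571 (Club cells). Its partner chain Il18rap had values of 268 and 331 across BASC, 79 and 126 across AT2 and 66 and 37 across Club cells. BASC were highest for both chains, without overlap. BASC exceeded Club cells 1.66-fold in Il18r1 (adjusted p = 0.0282) and 5.82-fold in Il18rap (adjusted p = 0.0195). Each call was lost in 3 of 6 fits without 1 library: those without either BASC replicate, and without Club replicate 1 for Il18r1 (adjusted p up to 0.169) or Club replicate 2 for Il18rap (up to 0.108), and that of Il18r1 without a trend. Against AT2 the differences of 0.57 and 1.57 were not called (adjusted p = 0.190 and 0.242). Il18bp, the secreted decoy that binds IL-18, had 100 and 71 in the BASC libraries, 166 and 176 in the AT2 libraries and 169 and 191 in the Club libraries, and was not called.

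**Figure D3:**
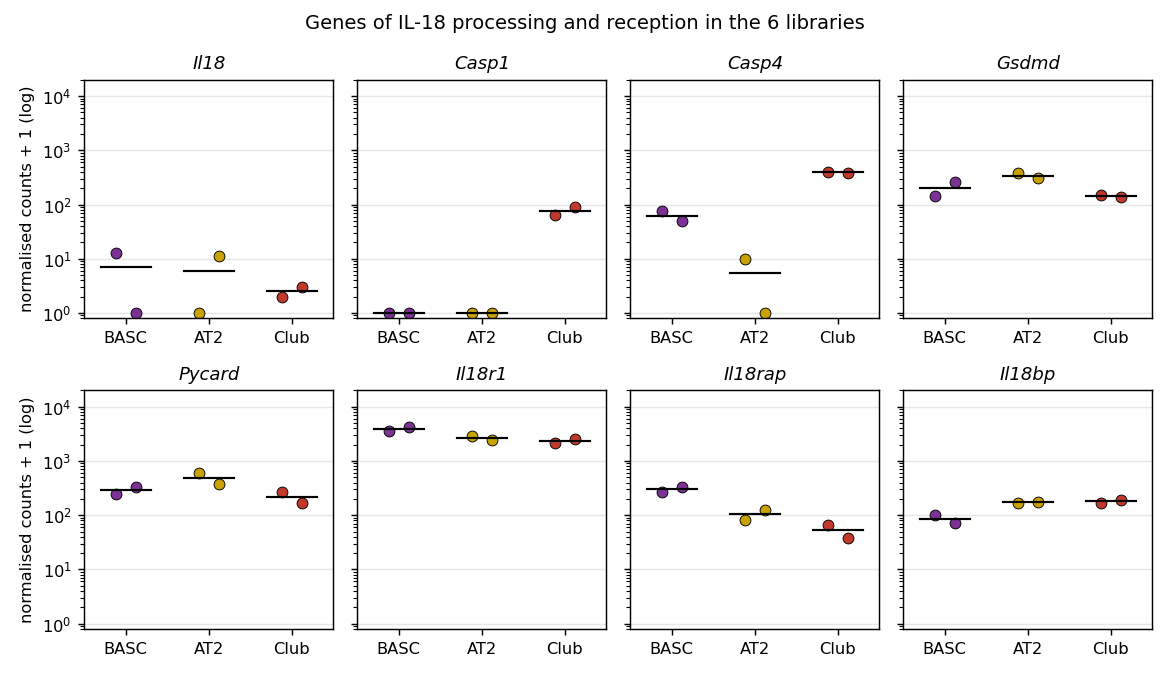
Normalised counts plus 1 on a log axis for Il18 and for genes of its processing and reception, with 1 point per library, 2 libraries in each population, and a bar at the population mean plus 1. Il18 reaches at most 12 in any library, Casp1 is listed at 0 outside Club cells, and Il18r1 has at least 2106 in all 6 libraries.

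Levels of different genes were set side by side per kb of annotated exon. In AT2, Cxcl15 had 32854 normalised counts per kb, Il33 1723, Cxcl16 223, Cxcl17 203 and Cx3cl1 32.4, where Cxcl16 (193 and 253) and Cxcl17 (227 and 179) overlapped between libraries. In BASC the order was Cxcl15 with 34452 per kb, Il33 with 748, Cxcl16 with 197, Cxcl17 with 169, and then Cxcl1 and Cx3cl1 with 62.9 and 60.7, which overlapped. Among Club libraries Cxcl17 led by its mean of 3428 per kb, but its values of 3637 and 3218 overlapped those of Cxcl15, 2292 and 3507. Cx3cl1 had 216 and Cxcl16 had 141 per kb there, and these did not overlap. Club cells held 2 chemokine genes at levels that overlapped, while AT2 and BASC held Cxcl15 far above the other 7 genes.

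**Figure D4:**
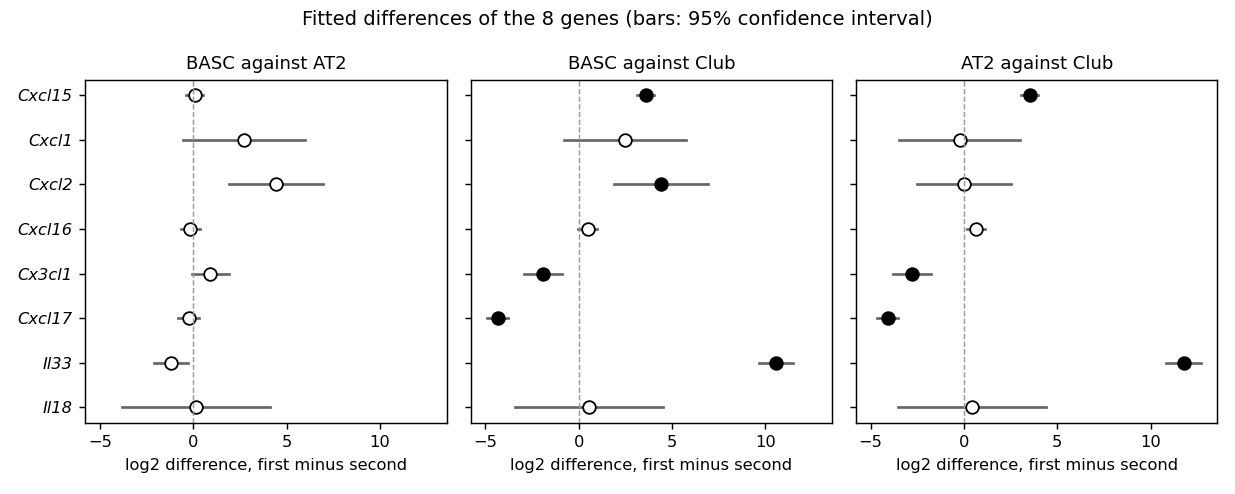
Fitted log2 differences of the 8 genes in the 3 comparisons, first population minus second, with 95% confidence intervals from limma on 2 libraries per population. Filled points passed an adjusted p of 0.05 and open points did not. No point is filled for BASC against AT2, and Il33 lies farthest from 0 in both comparisons with Club cells.

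Few other chemokine genes were seen. Of 30 listed, 9 were analysed and 5 tested, and limma called 0 in each comparison, with 1 lower in AT2 than in Club cells at an unadjusted p under 0.05, as were 16.6% of all genes tested. The highest value of any of the 9 in any library was 53, in Ccl25. Of 19 other epithelial cytokines and alarmins, 13 were analysed and 9 tested. Limma called 0 of them between BASC and AT2 (0 higher and 2 lower unadjusted, against 7.09% and 6.09% of all genes). Against Club cells it called 3 higher in BASC (5.77% of all genes) and 5 higher in AT2 (8.42%). Csf2, the growth factor that alveolar macrophages need, had 253 and 557 in the BASC libraries and 76 and 135 in the AT2 libraries, and Club cells had it at 0 in each. It was at least 145-fold higher in BASC and at least 37.8-fold higher in AT2 than in Club cells (adjusted p = 0.00109 and 0.00203), while its difference of 1.88 between BASC and AT2 had an interval from -0.12 to 3.88 (adjusted p = 0.408).

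Lcn2, an iron-binding defence protein, had 2528 and 2953 (BASC), 4922 and 5697 (AT2) and 492 and 413 (Club cells). Like Il33 it lay in the order AT2, BASC, Club without overlap, and its difference of -0.95 between BASC and AT2 did not pass (adjusted p = 0.0627), while those against Club cells did (log2 differences 2.60, adjusted p = 0.000102, and 3.55, adjusted p = 1.60e-05). Tgfb1, which restrains inflammation, was higher than in Club cells in BASC (2.37, adjusted p = 0.0321) and in AT2 (3.87, adjusted p = 0.00289). The former call was lost in 5 of 6 fits without 1 library, all but that without BASC replicate 2 (adjusted p up to 0.119), without a trend and with only those 2 groups fitted. Il34, a ligand of the macrophage growth factor receptor, was 1.97 higher in AT2 than in Club cells (adjusted p = 0.0285), a call lost in 5 of 6 such fits, all but that without Club replicate 1 (up to 0.140), without a trend and with only those 2 groups fitted. The cytokine gene Il6, the other gene called, had 85 and 36 in AT2 libraries, 15 and 14 in BASC libraries and 0 in Club libraries (AT2 against Club, adjusted p = 0.00977), and was named after its values were seen. Its call was lost without Club replicate 1 or 2 (up to 0.0681).

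Of 17 innate sensors and adaptors, 13 were tested. Limma called 0 between BASC and AT2 (3 higher and 0 lower unadjusted, where 7.09% and 6.09% of all genes were). Against Club cells it called 1 higher (5.77% of all genes) and 2 lower (5.42%) in BASC, and 3 lower (9.71%) in AT2. Tlr5, the receptor of flagellin, had values of 163 and 113 across BASC, 44 and 60 across AT2 and 552 and 528 across Club cells. It was lower than in Club cells in AT2 (-3.37, adjusted p = 0.00131) and in BASC (-1.98, adjusted p = 0.0195), and the latter call was lost without any 1 of the BASC or Club libraries (up to 0.186). Cd14, which hands lipopolysaccharide to Tlr4, was lower than in Club cells in BASC (log2 difference -1.56, adjusted p = 0.0301) and in AT2 (-1.54, adjusted p = 0.0223). The Cd14 call in BASC was lost in 3 of 6 fits without 1 library (BASC replicate 1 or either Club replicate). That in AT2 was lost in 4 of 6 (any AT2 or Club replicate). Both were lost without a trend, and the former also with only those 2 groups fitted. Tlr4 was 0.89 higher in BASC than in Club cells (adjusted p = 0.0460), and lost its call without any 1 of the BASC or Club libraries (up to 0.245) and under 4 of the other 9 alternatives. Tlr2, a receptor of bacterial lipoproteins, was named after its values were seen. It had 63 and 28 in the BASC libraries, 0 and 1 in the AT2 libraries and 48 and 60 in the Club libraries. Tlr2 was lower in AT2 than in Club cells (limma adjusted p = 0.0136), a call lost without either Club replicate. BASC and Club libraries overlapped. The log2 difference of 4.93 between BASC and AT2, with an interval from 2.48 to 7.38, was not called (limma adjusted p = 0.112).

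The genes most like each of the 5 members with a mean of at least 100 were found by the root mean square difference of centred log2 profiles over the 6 libraries, among 8834 protein-coding genes with a mean of at least 100. Nearest to Cxcl15 were Gpr153 (0.148), Dpp4 (0.211) and Col16a1 (0.220), and Dpp4, which encodes a peptidase that trims chemokines, had 3146 and 3190 in the BASC libraries, 4011 and 4092 in the AT2 libraries and 288 and 359 in the Club libraries. Nearest to Il33 were Nkd1 (0.312), Lyz1 (0.417) and Adam19 (0.459), each with at most 4 in any Club library. Nearest to Cxcl17 were Scnn1g (0.296), Pdcd4 (0.317) and Mxra8 (0.375), and nearest to Cx3cl1 were Pon1 (0.181), Hid1 (0.182) and Spata13 (0.235). Cxcl16, which varied little, had the closest neighbours, Serpinh1 (0.053), Tbc1d2b (0.056) and Prkacb (0.062). These distances describe 6 libraries and carry no test.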

How the data were processed

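RNA of 6 sorted samples was measured with a stranded total RNA kit for very small inputs, per the labels' protocols. Per the submitters' processing notes, the tools were FastQC, STAR 2.4.0a and featureCounts 1.4.5-p1 of Subread, on mm10 (GRCm38). The deposited values are a signal per gene and sample that the authors normalised from read counts and rounded to whole numbers. The method of normalization, the use of strand in counting and the gene models are each not given in the sources used here. Gaps and doublings among low whole numbers put 1 read at between 0.763 and 1.34 units. Whole reads could not be recovered where it was under 1, so no count model was run.

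Values were taken as log2(value + 1) for the 17721 genes that reached 10 in 2 or more samples. A 2-sided limma fit by group (limma 3.58.1, R 4.3.3) used a mean-variance trend and had 3 residual degrees of freedom and 4.20 from the prior. Fold changes are ratios of means, and log2 differences are those of the fit on log2(value + 1), which for low genes can differ from the ratio in size and sign. The script was tested on simulated data. Levels per kb use the union of exons in GENCODE M21. The same-numbered replicates were not treated as pairs. Genes named outside the 8 were called genes of fixed lists with a mean of at least 100, up to 4 per list and comparison, and the 3 nearest profiles. Others of those lists were named for their role, with their values seen. The 8 genes and the lists were chosen with earlier results of these data known. Of 194 list entries, 135 were analysed. Alternatives changed the pseudocount, filter, scaling, trend, groups fitted, replicate block and each library.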

Additional observations from a re-analysis of the deposited data

How the results depend on the processing

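Of the 9 calls of the 8 genes, 7 held in each of the alternatives run, and the exceptions were Cxcl2 and Cx3cl1 in BASC against Club. Of 33 calls of other listed genes, 16 held throughout. The genes of the 8 that were lower in BASC than in Club numbered 1 in place of 2 without a trend, and between 1 and 2 without 1 library. The number of all genes called between BASC and AT2 moved from 112 to 176 with a pseudocount of 10, 265 with a filter at 50 and 0 with only those 2 groups fitted, and ran from 3 to 112 without 1 library. For BASC against Club it was 1183 without a trend in place of 1983, and from 853 to 1888 without 1 library. For AT2 against Club it was 2028 in place of 3212, and from 1539 to 3291. With the replicate block the counts were 120, 1861 and 3045, and Cxcl2 was no longer called in BASC against Club. Deviations of same-numbered samples were correlated at 0.006 to 0.012 across genes. With the wide replicate gaps of low genes, this cannot tell whether such samples shared an animal or a day. Signs turned, without a call, in fits without 1 library for Cxcl15 (-0.02 to 0.16), Cxcl16 (-0.36 to 0.03) and Il18 (-1.61 to 1.97) in BASC against AT2, and for Cxcl1 in AT2 against Club (-2.36 to 1.89, where the fits without AT2 replicate 1 gave 1.89 and without Club replicate 2 gave 0.22). They also turned with quantile normalization for Il18 (-0.12) and Cxcl1 (0.34), and with a pseudocount of 10 for Cxcl1 (0.16). The cause was not tested. Quantile normalization moved the median of all genes by 0.10 in BASC against Club and 0.13 in AT2 against Club, and equal totals outside ribosomal RNA and mitochondrial genes moved the latter by -0.15. Low genes carry the widest errors, with a median log2 gap between replicates of 0.77 to 1.35 at means of 10 to 100. A fit without 1 library assumes that the lone sample varies like the other groups.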
